A study of Drosophila melanogaster with 6 samples.

Results

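The tripartite motif (TRIM) genes described here are *Trim9*, *mei-P26*, *brat*, *wech*, *tn* and *bon*, which are 6 of the 17807 gene symbols counted in this RNA-seq series. They were taken by symbol. The set was selected on the measured contrast between the 2 siRNA groups. In it *Trim9* was already known among the largest rises and *mei-P26* among the falls. That contrast is therefore given for these genes as a description and without p values. Where these genes are counted past the threshold of the model, nothing is read from it. The cells were ovarian somatic cells (OSCs), a *Drosophila melanogaster* line that grew from the follicle cells of the ovary. In all 6 libraries the cells carried a knockout of *l(3)mbt*, which encodes a chromatin protein that keeps germline genes silent in somatic tissue. There were 2 groups. In the first, Δ*l(3)mbt* OSCs received an siRNA duplex of 21 nt against *ovo*, whose product is a germline transcription factor with zinc fingers (3 libraries), and in the second the duplex was directed against *renilla* luciferase, which the fly does not have (3 libraries). RNA was collected 48 h after transfection. The labels name 1 cell line and number the replicates without saying whether they were separate cultures, so p values measure the spread between these libraries, which may be technical, and fewer cells with a transcript cannot be told apart from less transcript per cell.

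TRIM proteins are built from a RING domain, which hands ubiquitin to a target protein, followed by B-box domains and a coiled coil, and families within them differ in what comes next. In the TRIM-NHL family the coiled coil is followed by an NHL propeller, which in Brat and Mei-P26 binds RNA directly and brings repressors to the 3′ UTR of target mRNAs. Not every member has all of these parts, and Brat, for example, has the B-box and NHL parts but lacks the RING. Trim9 carries a SPRY domain, and Bonus, the product of *bon*, belongs to the TIF1 family of nuclear cofactors with a PHD finger and a bromodomain. In the fly ovary Mei-P26 is known for ending the divisions of germline cysts and Brat for restricting the stem cell state.

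The duplex against *ovo* is shown because it is the treatment that separates the groups. The capitals mark the seed, bases 2 to 8 of each strand, through which a short RNA can also touch other transcripts.
*ovo* siRNA antisense strand: uCGUCGUCcacgcagcuccuu
*ovo* siRNA sense strand: gGAGCUGCguggacgacgagg
The antisense strand pairs over 21 of 21 bases with X:5066359-5066379 and the sense strand reads the same as 21 of 21 bases of X:5066361-5066381 (dm6), inside the coding sequence of 5 of the 5 annotated *ovo* transcripts. A site for the antisense seed (GACGACG) was present in the 3′ UTR of 209 of 7534 genes tested (2.77%) and in none of the 5 TRIM genes that were tested. A site for the sense seed (GCAGCTC) was present in 266 of the same genes (3.53%), and *bon* was the TRIM gene among them, with 1 site. No match of these letters says nothing beyond the letters themselves.

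The letters CNGTTA, which the study ties to Ovo binding, were looked up on both strands from 250 bases before to 50 bases after each annotated start site. They were found for 3768 of the 7568 coding genes tested (49.8%), and for 5 of the 6 TRIM genes, with no match at the start sites of *tn*. The narrower form CCGTTA was found for 1074 genes (14.2%) and for 0 of the TRIM genes. The matches are printed with 12 bases on either side, the motif in capitals, as they read on the plus strand of dm6, which is the strand of all 4 genes.
*Trim9*, 2L:10544742-10544771: cgtatgtttcagCGGTTAttagacaatagt
*mei-P26*, X:9164093-9164122: cttttcttcgcaTAACCGatttttcgctct
*mei-P26*, X:9164181-9164210: tgcactcgaaaaTAACCGtttgcgagtagc
*brat*, 2L:19133621-19133650: ttcccgaaaaaaCTGTTAaatttaagttgt
*brat*, 2L:19165654-19165683: ctggaagttgctCGGTTAacaggcagccaa
*brat*, 2L:19165658-19165687: aagttgctcggtTAACAGgcagccaaaaaa
*bon*, 3R:20593071-20593100: cacggccgtgcgTAACAGccctcgaaatgc
The match of *Trim9* began 129 bases before its single start site and that of *bon* began 56 bases before its single start site. The matches of *mei-P26* lay at 1 of 3 start sites, and those of *brat* at 2 of 3, where the last 2 listed overlap each other on opposite strands. *wech* had 2 matches at 1 of 3 start sites. A gene with several start sites was searched at each of them, and a match describes the letters and is no measure of binding.

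The *ovo* siRNA libraries held between 14276921 and 21481506 reads and the *renilla* siRNA libraries between 2759594 and 11623446, with *renilla* siRNA replicate 3 the shallowest. Values are DESeq2-normalized counts (reads divided by a size factor of the library), and the 3 reads that a 0 still allows correspond to between 1.39 and 13.1 normalized counts, counting error only. The targeted *ovo* transcript fell to 907 ± 46.7 normalized counts with *ovo* siRNA, against 1511 ± 184 with *renilla* siRNA (SD, n = 3 each, log2 fold change −0.73 ± 0.13 SE, limma adjusted p = 0.00862). This call was lost without *ovo* siRNA replicate 2 (adjusted p = 0.0606). Reads of *l(3)mbt* were counted in every library, at 2911 ± 426 and 2334 ± 582 normalized counts (adjusted p = 0.267), which the counts per gene cannot set against the labelled knockout because they do not show which exons were read. Of the 14 germ cell markers, *vas* was at 2252 ± 151 and 1963 ± 271 and *bgcn* at 1223 ± 31.9 and 1243 ± 116. *stau* was at 1913 ± 199 and 4017 ± 236 and *pgc* at 392 ± 43.5 and 419 ± 135. *nos*, *osk* and *bam* stayed below 10 on average in both groups. *vas*, *bgcn* and *pgc* are outside the rule for named genes. Of 10 follicle cell markers all 10 were detected, with *tj*, which encodes the follicle cell factor Traffic jam, at 8941 ± 327 and 12763 ± 1034.

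*Trim9* (FBgn0051721, 2L:10544883-10628054, plus strand) encodes a RING ubiquitin ligase that in flies partners the Netrin receptor Frazzled in axon branching. It had 237, 189 and 146 normalized counts in the *ovo* siRNA libraries, against 38.3, 35.3 and 21.9 in the *renilla* siRNA libraries. Every *ovo* siRNA library was therefore well above every *renilla* siRNA library. The means were 191 ± 45.4 and 31.8 ± 8.73 (SD, n = 3 each), a 5.89-fold rise (log2 2.56 ± 0.28 SE), the third highest log2 fold change of the 7893 genes tested. These values stand for 489, 407 and 202 reads with *ovo* siRNA, against only 42, 37 and 5 reads with *renilla* siRNA. The gene spans 83.2 kb with 2 annotated transcripts from 1 start site. Its exons share no sequence with another annotated gene on either strand, although 4 other genes lie within its span.

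*mei-P26* (FBgn0026206, X:9163255-9189309, plus strand) encodes the TRIM-NHL protein that acts with Bam, Bgcn and Sxl in germline cysts. Its counts were 2667, 2207 and 2153 with *ovo* siRNA, against 4478, 4898 and 4812 with *renilla* siRNA. The highest *ovo* siRNA library lay far below the lowest *renilla* siRNA library. The mean fell to 2342 ± 283 in *ovo* siRNA cells, against 4729 ± 222 in *renilla* siRNA cells, by 2.03-fold (log2 −1.02 ± 0.13). The gene has 6 annotated transcripts from 3 start sites and 23.2 kb of exonic sequence.

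*brat* (FBgn0010300, 2L:19133816-19179758, plus strand) encodes Brain tumor, the partner of Pumilio and Nanos in silencing maternal *hunchback* mRNA and a brake on neural stem cell growth. It had 1498, 1499 and 1555 normalized counts in *ovo* siRNA libraries, against 2647, 2879 and 2767 in *renilla* siRNA libraries. The libraries of each group lay close together, with coefficients of variation of 2.14% and 4.19%, and the groups did not overlap. The means were 1517 ± 32.5 and 2765 ± 116, a 1.82-fold fall (log2 −0.86 ± 0.11). A short stretch of its exonic sequence lies opposite exons of other genes, and reads were counted by strand.

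*wech* (FBgn0259745, 2R:7478853-7489823, minus strand) encodes a TRIM-NHL protein that in fly muscle ties integrins to Talin and to Integrin-linked kinase. Counts were 2623, 2045 and 1998 with *ovo* siRNA and 4773, 5439 and 5417 with *renilla* siRNA. As for *mei-P26*, replicate 1 of the *ovo* siRNA group was the highest of its group and replicate 1 of the *renilla* siRNA group the lowest of its own. The mean fell to 2222 ± 348 with *ovo* siRNA, against 5210 ± 378 with *renilla* siRNA, by 2.36-fold (log2 −1.24 ± 0.15), the furthest fall of the set.

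*bon* (FBgn0023097, 3R:20593139-20612540, plus strand) encodes Bonus, which binds nuclear receptors and works in chromatin repression. It had 1074, 929 and 864 normalized counts with *ovo* siRNA, against 1449, 1479 and 810 with *renilla* siRNA. *renilla* siRNA replicate 3, with 185 reads of *bon*, lay below all 3 *ovo* siRNA libraries, so the groups overlapped. The means were 955 ± 107 and 1246 ± 378 (log2 −0.34 ± 0.24). Without that library the *renilla* siRNA mean was 1464 and the log2 fold change −0.62. A share of 22.2% of its exonic sequence lies opposite *CG15923*, which a count by strand keeps apart.

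*tn* (FBgn0265356, 2R:18987344-19008944, plus strand) encodes Thin, a TRIM-NHL protein of the muscle costamere. It was read once in *ovo* siRNA replicate 1 and once in *renilla* siRNA replicate 2, and 0 times in the other 4 libraries. No difference was detectable at this depth and no fold is given. Among 14 muscle markers, 7 were also under the filter of 10 normalized counts in 3 libraries, and *Mhc*, the muscle myosin, was at 60.0 ± 8.93 and 67.7 ± 5.62.

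**Figure D1:**
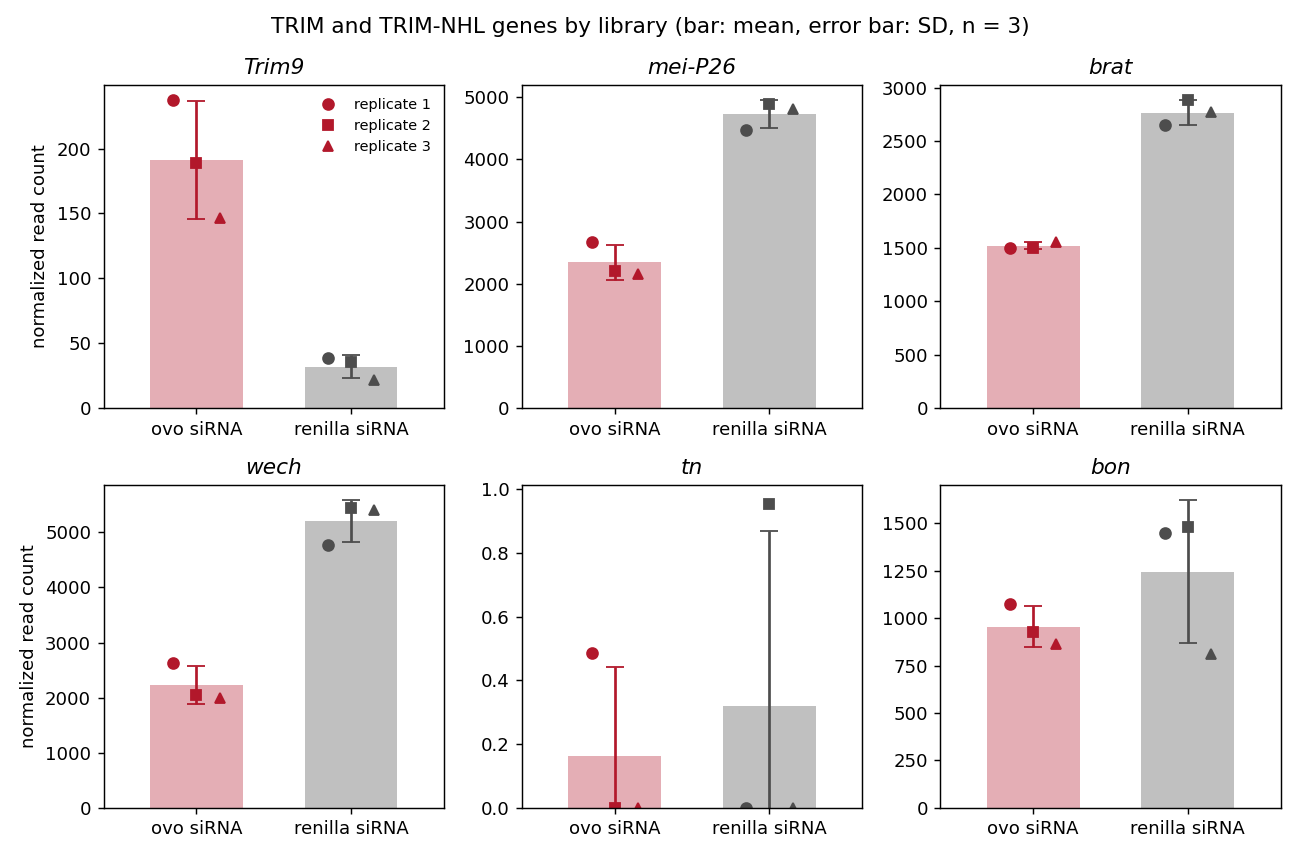
Normalized counts of the 6 TRIM genes in each library (y axis, from 0, a scale of its own in each panel), with *ovo* siRNA at the left and *renilla* siRNA at the right of each panel. Points are libraries and bars show the mean with the SD of 3 libraries, cut at 0 for *tn*. *Trim9* stands higher with *ovo* siRNA (146 to 237, against 21.9 to 38.3), *mei-P26*, *brat* and *wech* stand lower without overlap, *bon* overlaps through *renilla* siRNA replicate 3 at 810, and *tn* is near 0.

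Of the 6 genes, 5 passed the filter on low counts and 4 of these 5 were past the threshold of the model (limma, adjusted p of 0.05), 1 of them higher (*Trim9*) and 3 lower (*mei-P26*, *brat* and *wech*). Over all genes tested, 25.9% were past it, 11.8% higher and 14.1% lower. The same 4 genes had groups that did not overlap, which held for 45.2% of all genes tested. Because the genes were chosen with this contrast known, nothing is read from these counts. The split between higher and lower calls over all genes depended on the scaling, with 45.5% of calls higher as deposited and 58.0% with TMM scaling, a shift of the median log2 fold change by 0.093. *Trim9* stayed higher and *mei-P26*, *brat* and *wech* lower under TMM.

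Levels of different genes were compared per kilobase of exonic sequence. In *ovo* siRNA cells *wech* was the highest at 278 ± 43.5 normalized counts per kb, followed by *bon* at 164 ± 18.5, *brat* at 119 ± 2.54, *mei-P26* at 101 ± 12.2 and *Trim9* at 50.03 ± 11.9 (SD, n = 3), with *tn* last at 0.0263. No neighbours among the first 5 overlapped in that group. In *renilla* siRNA cells the levels per kb were 652 ± 47.4 for *wech*, 216 ± 9.06 for *brat*, 214 ± 65.0 for *bon*, 204 ± 9.57 for *mei-P26*, 8.34 ± 2.29 for *Trim9* and 0.0517 for *tn*. The ranges of *brat*, *bon* and *mei-P26* overlapped there, so their order is not resolved. *wech* therefore led in both groups, while *Trim9*, whose level with *ovo* siRNA was the higher one, was still below *mei-P26* in every library. Among 7868 genes with a known length, *Trim9* stood at percentile 19.6 in *ovo* siRNA cells and 4.12 in *renilla* siRNA cells. *wech* stood at percentile 63.1 and 83.9, *bon* at 45.3 and 55.4, *brat* at 35.8 and 55.7, and *mei-P26* at 31.4 and 53.7. The exonic length counts every annotated exon, so a gene whose long 3′ UTR form is little used in OSCs would read lower per kb than its mRNA level.

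**Figure D2:**
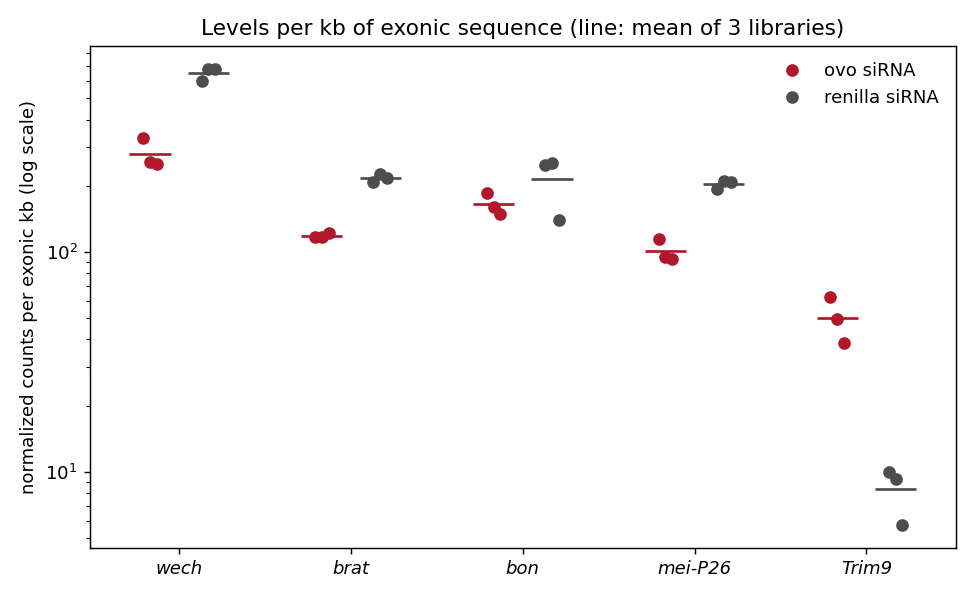
Normalized counts per kilobase of exonic sequence for the 5 expressed TRIM genes (y axis, log scale), with *ovo* siRNA at the left and *renilla* siRNA at the right of each gene, points for libraries and lines for means. *wech* is highest in both groups (means 278 and 652 per kb) and *Trim9* the lowest of the 5 expressed genes (50.03 and 8.34 per kb).

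The 3 genes that were lower share long 3′ UTRs. Length itself was not used to choose them, but the contrast was known at the choice, and over all genes falls went with 3′ UTR length. The longest annotated 3′ UTR was 18494 bases for *mei-P26*, with 0 of 7868 genes longer, 8499 for *brat*, with 16 longer, and 4541 for *wech*, with 97 longer. It was 1704 bases for *bon* and 1072 for *Trim9*, with 713 and 1298 genes longer. The transcripts of *mei-P26* and *brat* were also poor in G and C, at 35.5% and 38.1%, against 43.1% for *wech*, 48.4% for *Trim9* and 50.3% for *bon*. Over all genes the median log2 fold change moved with 3′ UTR length. It was 0.16 for the 3536 genes under 250 bases, genes with no annotated 3′ UTR among them, −0.26 for 835 genes of 1000 to 2000 bases, −0.52 for 438 genes of 2000 to 4000 bases and −0.90 for 126 genes of 4000 bases or more. In the last class 84 genes were past the threshold and lower (66.7%) and 1 was higher. *mei-P26* at −1.02, *brat* at −0.86 and *wech* at −1.24 all belong to that class. *Trim9* belongs to the class of 1000 to 2000 bases, where 4.07% of genes were higher and 27.7% lower.

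When each library was freed of a smooth trend that followed GC content and the lengths of transcripts and 3′ UTRs (called the length trend here), the values of the TRIM genes moved apart. *Trim9* stayed higher at a log2 fold change of 2.67 ± 0.20 and *wech* lower at −0.48 ± 0.10. *mei-P26* turned to 0.54 ± 0.12, with 11.98, 12.03 and 11.90 on the adjusted log2 scale in *ovo* siRNA libraries against 11.47, 11.63 and 11.17 in *renilla* siRNA libraries. *brat* turned to 0.30 ± 0.10 and *bon* was at −0.11 ± 0.11. Since 0 genes had a longer 3′ UTR than *mei-P26* and 16 a longer one than *brat*, the trend at their lengths rests on very few genes. The direction of *mei-P26* and *brat* thus depended on whether this trend was removed, and that of *Trim9* and *wech* did not. The targeted gene *ovo* was at −0.30 (limma adjusted p = 0.246) with the trend removed. It was at −0.070 (limma adjusted p = 0.576) when *renilla* siRNA replicate 3 was also left out. With the replicate number added to the model instead, it was at −0.30 (limma adjusted p = 0.0455). With the reads of every library thinned to the total of the shallowest, *Trim9* was at 2.31, *mei-P26* at −1.04, *brat* at −0.86 and *wech* at −1.27 on the log2 scale.

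**Figure D3:**
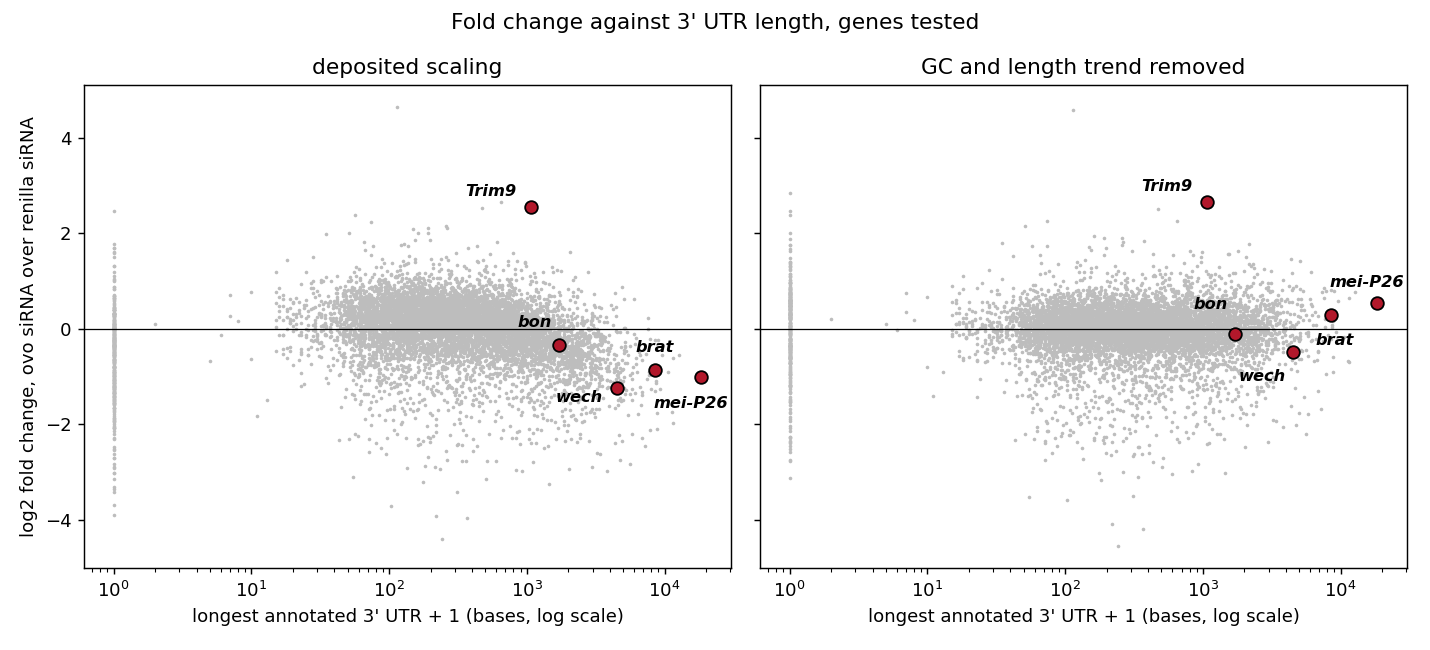
Log2 fold change of *ovo* siRNA over *renilla* siRNA (y axis) against the longest annotated 3′ UTR plus 1 base (x axis, log scale) for the genes tested, as deposited at the left and without the length trend at the right. Grey points are genes and red points the TRIM genes. *mei-P26*, *brat* and *wech* lie at the long end, at −1.02, −0.86 and −1.24 as deposited and at 0.54, 0.30 and −0.48 with the trend removed, while *Trim9* lies at 2.56 and 2.67.

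Over the 17 alternative ways of processing that kept the trend, log2 fold changes of *Trim9* ran from 2.31 to 2.73, of *mei-P26* from −1.12 to −0.84, of *brat* from −0.90 to −0.77, of *wech* from −1.36 to −1.07 and of *bon* from −0.62 to −0.19. The value of −0.62 for *bon* came from the fit without *renilla* siRNA replicate 3.

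**Figure D4:**
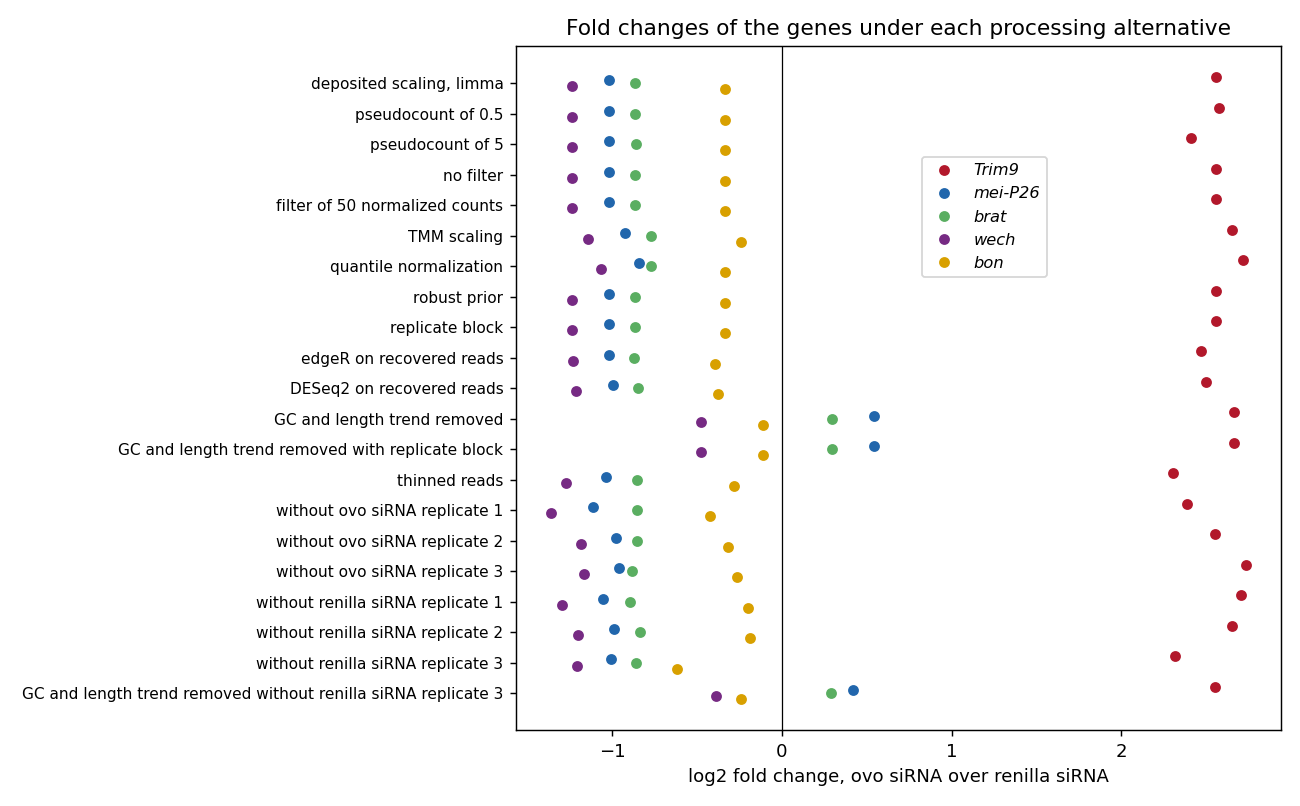
Log2 fold change of *ovo* siRNA over *renilla* siRNA (x axis) for 5 TRIM genes under each way of processing (y axis), 1 colour a gene. *Trim9* stays between 2.31 and 2.73, *wech* stays below 0, and *mei-P26* and *brat* cross 0 in the 3 fits that removed the length trend.

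The TRIM genes were also set against each other across the 6 libraries. On log2 normalized counts, *mei-P26* and *wech* had a Pearson correlation of 0.9996, *brat* with *mei-P26* 0.977 and *brat* with *wech* 0.974. *bon* correlated with these 3 at 0.48 to 0.51, and *Trim9* with *brat* at −0.98. These are descriptions over 6 libraries that fall into 2 groups and share their depth, and between 269 and 359 of 6333 genes correlated above 0.95 with each TRIM gene tested. The 3 genes whose pattern was most like that of *Trim9* were *GstS1* (0.998), a glutathione S-transferase, *CG18135* (0.998) and *beta-PheRS* (0.995), a tRNA synthetase subunit. For *mei-P26* they were *wech*, *stau* (0.999), which encodes the RNA-binding protein Staufen, and *CkIIbeta* (0.999), a casein kinase subunit. For *brat* they were *Su(Tpl)* (0.999), *side* (0.998) and *Aps* (0.998), for *wech* they were *mei-P26*, *stau* (0.998) and *Tollo* (0.998), and for *bon* they were *Patr-1* (0.999), *smash* (0.999) and *Tao* (0.998).

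The genes that work with the TRIM proteins were then counted in lists, each read beside a median log2 fold change of 0.043 over all genes tested, of which 25.9% were called, 11.8% as rises and 14.1% as falls. Of the 14 partners of Brat and Mei-P26, 11 were tested, 7 fell, 0 rose and 4 did not pass, with a median of −0.73. *Sxl*, the sex determination RNA-binding protein that meets Mei-P26, was at 2498 ± 209 with *ovo* siRNA and 5236 ± 664 with *renilla* siRNA (log2 −1.06, adjusted p = 0.00335). *AGO1*, the miRNA Argonaute, was at 4454 ± 608 and 8929 ± 125 (log2 −1.01, adjusted p = 0.00363). *eIF4EHP*, the cap-binding repressor that Brat recruits, was at 1413 ± 69.5 and 3290 ± 583 (log2 −1.21, adjusted p = 0.00270), and *Rbfox1* also fell (log2 −0.99, adjusted p = 0.00579). *bam* and *nos*, whose proteins act with Mei-P26 and Brat in the germline, were below 10 normalized counts on average in both groups. *bgcn*, a partner gene outside the rule for named genes, was at 1223 ± 31.9 and 1243 ± 116 (limma adjusted p = 0.923). The list had 4 falls without *ovo* siRNA replicate 2, 5 without *ovo* siRNA replicate 3, and 6 or 7 without any of the other 4 libraries. With the trend removed it had 3 falls, of which 2 were among the 7. *eIF4EHP* was one of them (−0.42, adjusted p = 0.0338), while *Sxl* (−0.18, adjusted p = 0.208), *AGO1* (−0.24, adjusted p = 0.0717) and *Rbfox1* (−0.41, adjusted p = 0.113) did not pass. Like *mei-P26* itself, *Sxl*, *AGO1* and *eIF4EHP* have long 3′ UTRs, of 4753, 4585 and 3525 bases. Those of the other falls were 4602 bases for *pum*, 3447 for *Rbfox1*, 1832 for *Not1* and 473 for *Pop2*. *Pop2* was the other fall kept with the trend removed, at −0.68 (limma adjusted p = 0.000739), beside −0.42 as deposited. *pum*, *Not1* and *Pop2* are outside the rule for named genes.

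Of 8 mRNAs known as targets of Brat or Mei-P26, 5 were tested, 2 fell and 0 rose (median −0.46). *Myc*, the growth-promoting transcription factor gene that Brat restrains in neuroblasts, was at 2700 ± 290 in *ovo* siRNA cells and 9437 ± 2172 in *renilla* siRNA cells (log2 −1.79, adjusted p = 0.00205), and *chinmo*, a temporal factor, also fell (log2 −1.30, adjusted p = 0.00310). Without *renilla* siRNA replicate 3 the falls were 4, and 1 with the trend removed, which *Myc* passed at −0.68 and *chinmo* did not at −0.21. *hb*, the classic target, was at 0.162 on average with *ovo* siRNA and 0 with *renilla* siRNA.

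Around *Trim9*, 10 of 11 Netrin and Slit guidance genes were tested, 1 rose and 2 fell (median −0.54). The Netrin ligand gene *NetA* was at 302 ± 5.83 with *ovo* siRNA and 163 ± 15.6 with *renilla* siRNA (log2 0.90, adjusted p = 0.00550). Its neighbour in the genome and family, *NetB*, was at 59.9 ± 14.7 and 144 ± 13.0 (log2 −1.27, adjusted p = 0.00681). The repulsive Netrin receptor gene *unc-5* fell (log2 −0.43, adjusted p = 0.0357), a call lost in 5 of the 6 fits that left out 1 library. *fra*, which encodes the receptor that Trim9 partners and is outside the rule for named genes, was at 1042 ± 139 and 1809 ± 655 (adjusted p = 0.0886). The falls of the list were 8 without *renilla* siRNA replicate 3 and 1 without any of the other 5 libraries. With the trend removed *NetA* stayed past the threshold (0.74, adjusted p = 0.00210), *NetB* (−0.46, adjusted p = 0.0848) and *unc-5* (−0.33, adjusted p = 0.0775) did not, and *fra* was the only fall of the list (−0.44, adjusted p = 0.0223), beside 2 rises.

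Around *wech*, 14 of 14 integrin adhesion genes were tested, 0 rose and 1 fell, *Zyx* (log2 −0.65, adjusted p = 0.00900), which encodes the adhesion protein Zyxin. *rhea* and *Ilk*, which encode the Talin and the kinase that Wech ties to integrins and were picked out after their values were seen, were at 4002 ± 963 and 1218 ± 52.9 with *ovo* siRNA and at 3624 ± 1481 and 1038 ± 140 with *renilla* siRNA (adjusted p = 0.665 and 0.222). The median of the list was 0.090, while *wech* itself was at −1.24. Without *renilla* siRNA replicate 3, 2 genes of the list rose and 4 fell, and without *ovo* siRNA replicates 2 or 3 none did. With the trend removed 1 rose and 2 fell, *Zyx* among the falls.

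Around *bon*, all 12 partners of Bonus were tested, 1 rose and 2 fell (median −0.058). The nuclear receptor genes *EcR* (log2 −0.83, adjusted p = 0.00883) and *ftz-f1* (log2 −0.74, adjusted p = 0.0154) fell and the deacetylase gene *HDAC1* rose (log2 0.51, adjusted p = 0.0353). With the trend removed *EcR* was at 0.095, *ftz-f1* at 0.019 and *HDAC1* at 0.17, none past the threshold, and the 2 rises and 1 fall of the list were other genes. The list had 0 falls without *ovo* siRNA replicate 2, 1 without *renilla* siRNA replicate 1 or 2 or *ovo* siRNA replicate 3, and 6 when *renilla* siRNA replicate 3 was left out. The rise of *HDAC1* was lost without each library other than *renilla* siRNA replicate 3.

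**Figure D5:**
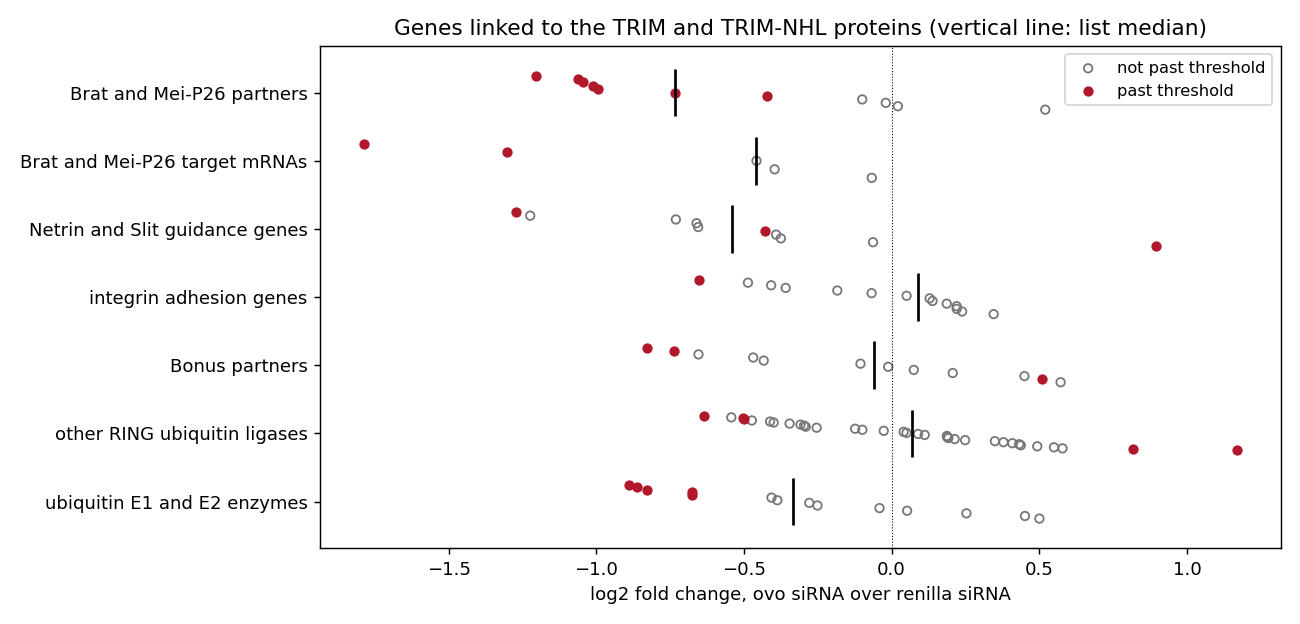
Log2 fold change of *ovo* siRNA over *renilla* siRNA (x axis) for each tested gene of the lists set beside the TRIM genes (y axis), filled where past the threshold, with a vertical line at the median of each list. The partners of Brat and Mei-P26 have a median of −0.73 and the integrin genes of 0.090, beside 0.043 for all genes tested.

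*Trim9* was also read beside other ubiquitin genes. Of 35 other RING ligases 34 were tested, 2 rose and 3 fell (median 0.070). Among the rises was the vacuolar sorting gene *dor*, at 251 ± 11.4 with *ovo* siRNA and 143 ± 22.4 with *renilla* siRNA (log2 0.82, adjusted p = 0.0110), a call lost without *ovo* siRNA replicate 2 or 3. *Mkrn1* (−0.50, adjusted p = 0.0211) and *mura* (−0.63, adjusted p = 0.0303) fell. With the trend removed they were at −0.013 and −0.11 and did not pass, both rises of the list were kept, and its 1 fall was none of the 3. Without *renilla* siRNA replicate 3 the list had 8 rises and 11 falls, and without any other single library 1 to 3 rises and 0 or 1 fall. Of 16 genes for E1 and E2 enzymes, which pass ubiquitin to the ligases, 14 were tested, 5 fell and 0 rose (median −0.33). Among them was *Ubc6* (−0.86, adjusted p = 0.00376). The list had 1 fall without *ovo* siRNA replicates 2 or 3, 3 when *renilla* siRNA replicate 2 or *ovo* siRNA replicate 1 was dropped, 4 without *renilla* siRNA replicate 1, 7 without *renilla* siRNA replicate 3, and 2 with the trend removed, of which 1, *Ubc6*, was among the 5, beside 1 rise.

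Markers of other cell types moved beside the TRIM genes as follows. Of 14 neuron and glia markers, which bear on *Trim9* and *brat*, 6 were tested and 4 fell. Their summed level ran from 7715 to 9755 normalized counts with *ovo* siRNA and from 19941 to 23058 with *renilla* siRNA. With *renilla* siRNA the largest parts were the large cytoskeletal gene *futsch* at 7603 ± 1484 and the calcium channel gene *cac* at 7292 ± 254. With *ovo* siRNA *futsch* was at 1622 ± 268 (log2 −2.22, limma adjusted p = 0.00137) and *cac* at 2682 ± 384 (log2 −1.45, limma adjusted p = 0.00174). The list was mixed in level. The neuronal RNA-binding protein gene *elav* was at 1693 ± 109 with *ovo* siRNA and 2015 ± 357 with *renilla* siRNA, and the syntaxin gene *Syx1A* at 2339 ± 408 and 4839 ± 155 (log2 −1.06, adjusted p = 0.00381), while *nSyb*, *brp*, *Syt1* and *repo* averaged 9.10 or less in both groups. With the trend removed the same 4 genes fell and 2 rose, *elav* (0.82, adjusted p = 0.00349) and *Rbp9* (0.84, adjusted p = 0.0323). Muscle markers, which bear on *wech* and *tn*, summed to 516 to 679 and 863 to 1209, and 3 of the 7 tested fell. The giant muscle genes *sls* (log2 −1.48, adjusted p = 0.00666) and *bt* (log2 −1.27, adjusted p = 0.00791) fell as deposited. With the trend removed *sls* was past the threshold as a rise (0.41, limma adjusted p = 0.0244) and *bt* was not past it (0.20, limma adjusted p = 0.442). *Prm*, which encodes paramyosin, was at −1.16 (adjusted p = 0.0124) as deposited and −1.32 (adjusted p = 0.00112) with the trend removed. The muscle list then had 2 rises and 1 fall. Of the follicle cell markers 4 fell and 1 rose, *mirr* with the smallest adjusted p (log2 −1.28, adjusted p = 0.00208), and their summed level was 35796 to 43342 and 41874 to 53557. Of the germ cell markers 8 were tested and 4 fell, among them *stau* (log2 −1.07, adjusted p = 0.00237), and their summed level was 5756 to 6302 and 7689 to 8192. Of 7 hemocyte markers 3 were tested and 0 passed, with sums of 1410 to 1854 and 898 to 1441. With the trend removed the follicle cell markers had 4 falls, 3 of them also called as deposited, and 2 rises, 1 of them so. The germ cell markers then had 3 falls, all 3 also called as deposited, and the hemocyte markers 1 rise, *crq* (0.68, limma adjusted p = 0.00251). Leaving out 1 library, with the trend kept, moved the counts as well. The follicle cell markers had 2 falls without *ovo* siRNA replicate 2 or 3 or *renilla* siRNA replicate 1 or 2, and 7 without *renilla* siRNA replicate 3. The germ cell markers had 1 fall without *ovo* siRNA replicate 2, 2 when any of *ovo* siRNA replicate 1 and *renilla* siRNA replicates 1 and 2 was left out, and 5 without *renilla* siRNA replicate 3, and the muscle markers had 1 without *ovo* siRNA replicate 2. The part of these cell type markers in the values of the TRIM genes was not tested.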

How the data were processed

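RNA-seq was analysed from 6 libraries of Δ*l(3)mbt* OSCs, 3 with *ovo* siRNA and 3 with *renilla* siRNA, grouped by the labels. The authors selected polyadenylated RNA, made stranded libraries and deposited 1 table of read signal per gene, DESeq2-normalized counts, made with cutadapt 1.18, STAR 2.7.3a, featureCounts of Subread 1.5.3 and DESeq2 1.30.1 per the submitters' processing notes (dm6). A deposited DESeq2 table of the authors' own comparison (fold changes and p values) was not used. Every value was a whole read number times 1 factor per library (100% within 0.01, furthest deviation 0.000271), so whole reads were recovered. Totals are in the report. Without molecular identifiers, the floors in the report cover only counting error.

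Genes that reached 10 normalized counts in 3 or more libraries were kept (7893), and log2(normalized count + 1) was fitted with limma 3.58.1 (R 4.3.3, trended prior, two-sided, Benjamini-Hochberg over all genes kept, threshold 0.05). Fold changes are on this scale, which understates those of low genes, with the standard error of the fit. An exact permutation of 3 against 3 libraries cannot go below p = 0.1 and was not used. On simulated data of this comparison with 7893 genes, 16 of 67 genes planted at 1.5-fold (23.9%), 54 of 67 at 2-fold (80.6%) and 65 of 66 at 4-fold (98.5%) were called, with 6 false calls. The simulation drew each gene independently, with no length trend and no shift shared by the genes of a library. Its shares and false calls may therefore not hold for the real libraries.

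Symbols were matched to a later Ensembl annotation of the same build for positions, lengths and GC, 17019 of 17807 directly and 723 by an older symbol, with lengths for 99.7% of genes tested. Sequence was read from RefSeq's copy of the dm6 assembly and the siRNA from the study's oligonucleotide table. Motif counts cover coding genes.

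The TRIM genes and the lists (partners of Brat and Mei-P26, their target mRNAs, Netrin and Slit guidance, integrin adhesion, Bonus partners, other RING ligases, E1 and E2 enzymes, and markers of neurons and glia, muscle, follicle cells, germ cells and hemocytes) were chosen with earlier results of these data known. Named genes were *ovo*, *l(3)mbt*, the TRIM genes, from each list at most 4 genes, by smallest adjusted p among those called (or the 2 of highest mean where none was), markers named for their absence, and for each TRIM gene the 3 of highest correlation among genes averaging 100 normalized counts or more. The alternatives were a pseudocount of 0.5 or of 5, a filter of 50 or none, TMM and quantile scaling, a robust prior, a replicate block, edgeR 4.0.16 and DESeq2 1.42.0 on recovered reads, a natural spline trend (5 degrees of freedom) in GC, transcript length and 3′ UTR length removed from each library, reads thinned to the smallest library, and leaving out each library. The trend removal combined with the block, and with *renilla* siRNA replicate 3 left out, was added after seeing the data. Some genes that the rule names are not reported here.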

Additional observations from a re-analysis of the deposited data

How the results depend on the processing

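*Trim9* and *wech* kept their direction in all 20 alternatives, and *mei-P26* and *brat* in 17, which describes the contrast that chose them. With the GC and length trend removed, alone, with the replicate block, and without *renilla* siRNA replicate 3, *mei-P26* was at 0.54, 0.54 and 0.42, *brat* at 0.30, 0.30 and 0.29, *EcR* at 0.095, 0.095 and 0.049, *sls* at 0.41, 0.41 and 0.41, *bt* at 0.20, 0.20 and 0.34 and *Patr-1* at 0.14, 0.14 and 0.025 (log2). *ftz-f1* was at 0.019 in the first pair of these and *beta-PheRS* at −0.024 in the last. In these 3 fits 2, 3 and 3 TRIM genes were higher, in place of 1. In the first pair 1 was lower, in place of 3, and in the last *wech* (−0.39) and *bon* (−0.24) were past the threshold and lower. Genes called ran from 486 (without *ovo* siRNA replicate 2) to 4055 (without *renilla* siRNA replicate 3) when 1 library was left out, beside 2045, and were 3458 with the trend removed without *renilla* siRNA replicate 3. With 1 library left out, *Trim9* ran from 2.32 to 2.73, *mei-P26* from −1.12 to −0.96, *brat* from −0.90 to −0.83, *wech* from −1.36 to −1.17 and *bon* from −0.62 to −0.19, and 3 TRIM genes fell (4 without *renilla* siRNA replicate 3, where *bon* passed). The replicate block gave 2978 calls. The 4 TRIM genes past the threshold as deposited were past it there too, from which nothing is read because this contrast chose them. The labels do not say whether the numbers pair the libraries, and 3 libraries in each group are too few to decide it. Deviations of same-numbered libraries correlated at 0.44, −0.14 and 0.46, and not every library correlated best with its own number. Over all genes named, 962 values had the same outcome at the threshold, whether called or not called in both fits. A call was lost by 125 and gained by 11, and 21 changed sign. The cause of these changes was not tested. The depth of *renilla* siRNA replicate 3 (2759594 reads) limits low genes, with 5 reads of *Trim9* there.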
